A study of Rattus norvegicus with 24 samples.

Results

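The interleukin-1 (IL-1) family and inflammasome genes examined here are 10 genes: the ligands Il1a, Il1b, Il18 and Il33, the receptor antagonist Il1rn, the receptors Il1r1, Il1r2 and Il1rl1, and the inflammasome genes Nlrp3 and Casp1. They were found through the RefSeq transcripts that the probes of the array carry. Of the 10 genes, 9 had at least 1 named probe, out of 15168 named genes on the array, and they shared 11 probes, with 2 each for Il1a and Il1rl1. Il1r1 was not analysed here. All 9 genes passed the filter on dim probes and were among the 12891 genes tested.

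Heart muscle (myocardium) RNA of rats was hybridised to 24 one-colour Agilent arrays, in 6 groups of 4 arrays, each group holding 2 males and 2 females. In the Jiaji, Neiguan, Yanglingquan and Quchi groups, rats were needled at the acupoint of that name for 7 days and the left anterior descending coronary artery was then tied off. The IRI group (ischaemia-reperfusion injury) had the artery tied off without acupuncture, and the sham group had neither treatment in the labels. The sources used here give no strain, age, needling at a non-acupoint, length of reperfusion or time of collection. The labels number the arrays within groups and name no animal, so that the p-values rest on the spread between arrays, which may be technical.

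IL-1 cytokines are alarm signals that injured or activated cells release, and they act on surrounding cells through receptors that share the MyD88 and NF-kB pathway. IL-1 beta and IL-18 are made as inactive precursors that caspase-1 cleaves once a sensor such as NLRP3 has assembled an inflammasome, whereas IL-1 alpha and IL-33 are held in cells and set free when these are damaged. The receptor antagonist (Il1rn) and the decoy receptor (Il1r2) limit IL-1 signalling, and ST2, the product of Il1rl1, is the receptor of IL-33 and a known marker of heart strain.

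Promoter windows of 300 bases, 250 before and 50 after the start site, were taken from RefSeq on the rat build GRCr8. They were held for 9 of the 10 genes, in 10 windows, with none for Il1r2. Shown are the windows of Il1a and Il1rn, the members whose levels were most alike over the arrays, and of Il1b, the cytokine best known in heart injury. All 3 lie on chromosome 3. The capitals mark matches, on either strand, to the letters of a TATA box (TATAAA), an AP-1 site (TGANTCA), a PU.1 site (GAGGAAG), an NF-kB site (GGGA, any 4 bases, then CC) or an IRF site (GAAA, any 2 bases, then GAAA).
Il1a, chr3:136989968-136990267, minus strand: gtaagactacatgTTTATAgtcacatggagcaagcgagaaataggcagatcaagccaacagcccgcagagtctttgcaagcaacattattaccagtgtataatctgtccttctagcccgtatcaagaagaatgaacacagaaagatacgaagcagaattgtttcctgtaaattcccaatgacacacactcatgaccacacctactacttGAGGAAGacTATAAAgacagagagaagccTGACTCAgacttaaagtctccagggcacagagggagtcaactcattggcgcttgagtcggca
Il1rn, chr3:27520072-27520371, plus strand: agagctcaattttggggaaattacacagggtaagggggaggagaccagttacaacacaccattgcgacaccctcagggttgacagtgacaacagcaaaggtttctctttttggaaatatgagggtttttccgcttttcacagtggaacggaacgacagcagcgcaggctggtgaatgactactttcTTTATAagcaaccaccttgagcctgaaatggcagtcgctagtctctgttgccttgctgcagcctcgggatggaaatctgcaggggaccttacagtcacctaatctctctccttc
Il1b, chr3:137036532-137036831, minus strand: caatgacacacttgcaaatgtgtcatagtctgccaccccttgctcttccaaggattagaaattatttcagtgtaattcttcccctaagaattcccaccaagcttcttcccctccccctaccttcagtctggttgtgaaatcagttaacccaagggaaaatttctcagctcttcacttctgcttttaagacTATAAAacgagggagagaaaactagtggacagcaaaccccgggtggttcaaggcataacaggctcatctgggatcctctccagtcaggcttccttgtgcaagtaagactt

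The Il1a window held 2 TATA box matches, 1 AP-1 match and 1 PU.1 match, and no 2 of these overlap. The windows of Il1rn and Il1b held 1 TATA box match each. The TATA box letters stood in 14.2% of all 33469 windows of this length, the AP-1 letters in 7.33%, the PU.1 letters in 12.4%, the NF-kB letters in 19.3% and the IRF letters in 3.92%. The NF-kB letters stood in 0 of the 10 member windows, which says only that these letters are not in them. A match is a description of the sequence.

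A level is the log2 processed signal of a probe less the 75th percentile of its array, so that 0 is that percentile and 1 unit is a doubling. They depend on the probe and were not compared between genes. Groups were compared with limma in 1 fit of the 24 arrays on group and sex. A gene is called where the Benjamini-Hochberg adjusted p over all genes was under 0.05. Arrays of 1 group correlated at 0.976 to 0.993. Between 71.2% and 76.4% of the probes were well above background on the Yanglingquan arrays, against 75.6% to 88.7% on those of the other groups. The arrays fell into 7 scan times, 1 for each group except Quchi, whose replicate 1 was scanned apart from the other 3, so that scan and group cannot be told apart. Of 12 cardiomyocyte markers 11 were measured, and their mean level lay between 5.81 and 6.56 on every array, as the tissue label says. In Yanglingquan 8 of the 11 were called higher than in IRI, where 12.1% of all genes were called. Against sham 7 were called higher (median 0.59), where 13% of all genes were called. Of 9 mast cell markers 2 were called lower in Yanglingquan than in IRI and 2 lower than in sham. In Jiaji 2 of the 9 were called lower than in sham (24% of all genes called) and 1 lower than in IRI (10.2%). In Neiguan 1 was called lower than in IRI (5.61%). So few calls among 9 markers show no fall of the set in any group. The median difference of the 9 from IRI was -0.41 in Jiaji, -0.31 in Neiguan, -0.49 in Yanglingquan and -0.33 in Quchi. That of all genes lay between -0.05 and 0.02, and the medians were not tested. The part of these cells in the Yanglingquan values was not tested.

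Of the 9 genes, Il1r2 rose in every injured group against sham, Il33 rose against sham in the Jiaji and Neiguan groups, and the other 7 were called in no comparison with sham when 1 probe represented each gene. Against sham, 2 of 9 were called in Jiaji, where 24% of all genes were called, and 2 of 9 in Neiguan, where 19.9% were. In Yanglingquan 1 of 9 was called, against 13% of all genes, in Quchi 1 of 9, against 21.1%, and in IRI 1 of 9, against 5.76%. The median difference from sham over the 9 was 0.13 in Jiaji, 0.29 in Neiguan, -0.12 in Yanglingquan, -0.098 in Quchi and 0.03 in IRI, and that of all genes lay between -0.10 and 0.03. The comparisons with sham share the sham arrays.

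**Figure D1:**
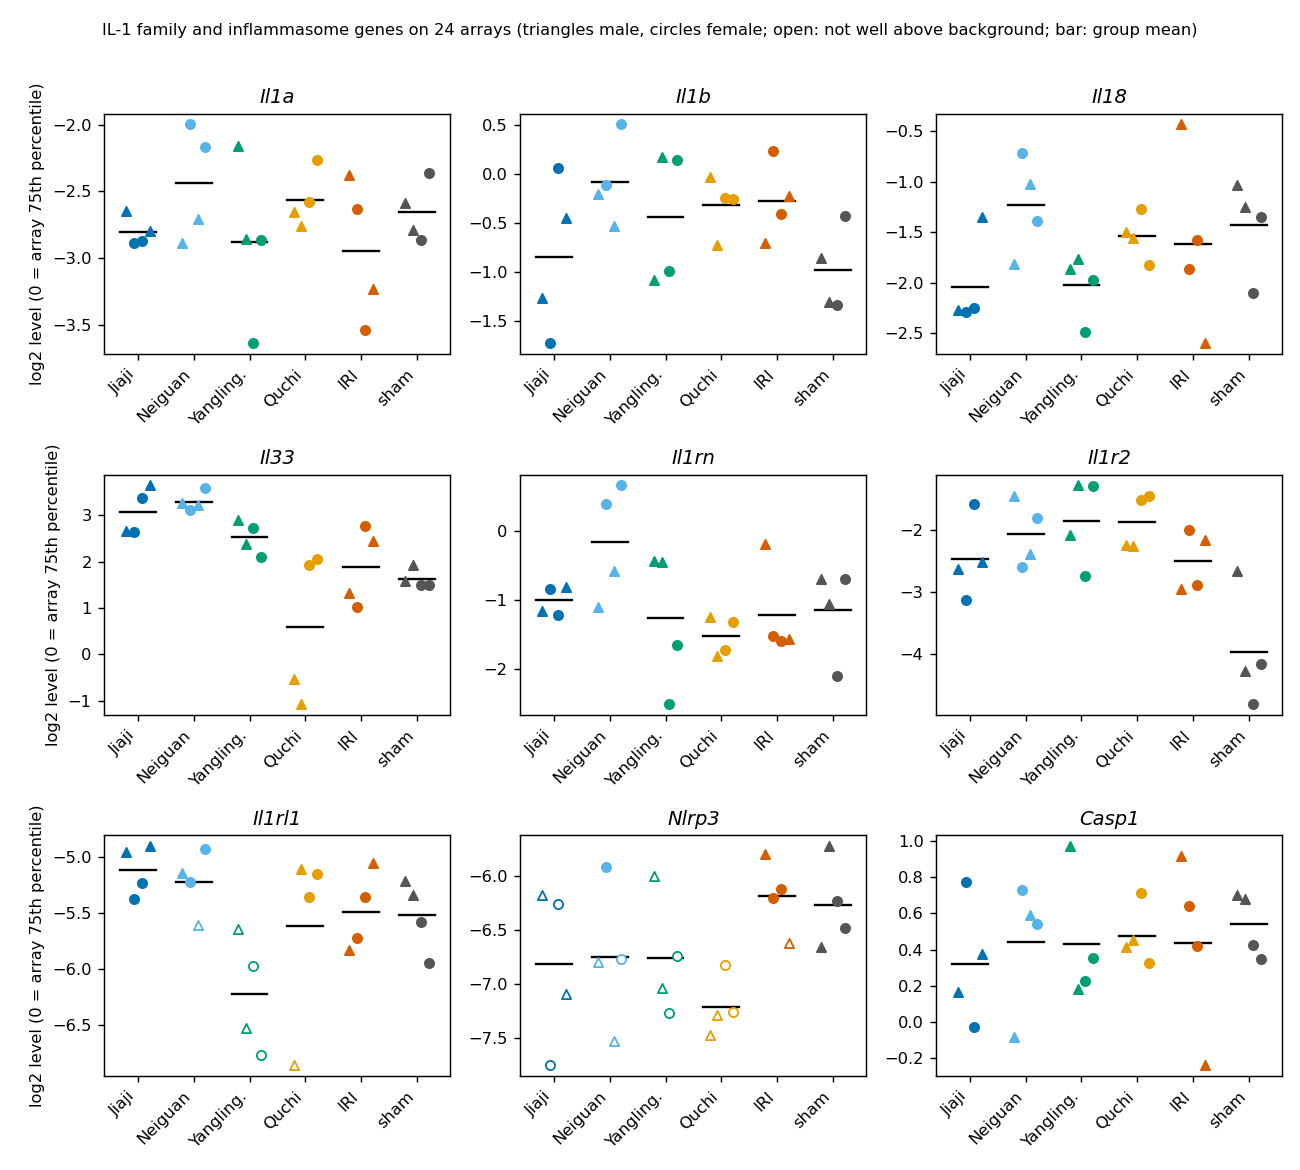
Levels of the 9 measured genes on each array (log2, 0 is the 75th percentile of the array), by group, with males as triangles, females as circles and the group mean as a bar. Open symbols are spots not well above background. Il1r2 lay lowest in sham, Il33 was split within Quchi, and Nlrp3 was near background in most acupoint arrays.

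Il1b, the main secreted IL-1 cytokine, had its highest group mean in Neiguan and its lowest in sham. Its levels were -1.26, -1.73, 0.06 and -0.44 in Jiaji, and -0.20, -0.11, -0.53 and 0.51 in Neiguan. They were -1.08, 0.18, -0.99 and 0.14 in Yanglingquan, and -0.03, -0.73, -0.24 and -0.25 in Quchi. The IRI arrays had -0.71, 0.24, -0.40 and -0.22, against -0.85, -1.30, -1.33 and -0.43 in sham. The lowest array of all was in Jiaji and the highest in Neiguan, and all groups overlapped one another. The log2 difference was 0.71 ± 0.35 (SE, n = 4 each) in IRI against sham (limma adjusted p = 0.307) and 0.90 ± 0.35 in Neiguan against sham (limma adjusted p = 0.0773), so neither was called. Jiaji stood at -0.57 ± 0.35 against IRI (limma adjusted p = 0.356).

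Il1a, the cell-bound IL-1 cytokine, varied little between groups. Its probe of higher signal averaged -2.80 ± 0.11 in Jiaji, -2.44 ± 0.42 in Neiguan, -2.88 ± 0.60 in Yanglingquan, -2.56 ± 0.21 in Quchi, -2.94 ± 0.53 in IRI and -2.65 ± 0.22 in sham (SD, n = 4 each). Its differences from IRI ran from 0.06 to 0.51 and its differences from sham from -0.29 to 0.21, each with an SE of 0.27. The smallest adjusted p over these 9 comparisons was 0.306. The 2 Il1a probes differed in Yanglingquan. The dimmer probe had -4.68, -5.72, -6.50 and -6.72 there, against -5.10, -4.72, -4.80 and -4.66 in sham, and only the first Yanglingquan array was well above background. With every probe tested on its own, that probe was lower by -1.09 ± 0.36 against sham (limma adjusted p = 0.0404), where 17.3% of all probes were called. The call ended in 6 of 8 fits that left out 1 array, with adjusted p up to 0.153, and also with quantile normalization, the authors' values and the replicate block (limma adjusted p = 0.0534). With normexp background correction the difference was -0.077 (limma adjusted p = 0.809). The same probe was higher by 1.298 ± 0.36 in Jiaji than in Yanglingquan (limma adjusted p = 0.00883, with 32.8% of all probes called) and by 1.42 ± 0.36 in Neiguan than in Yanglingquan (limma adjusted p = 0.00833, with 23.6% called), and neither was called with normexp, quantile normalization or the authors' values.

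Il18, a caspase-1 substrate that drives interferon gamma production, was called in no comparison. Its group means were -2.04 ± 0.46 in Jiaji, -1.23 ± 0.48 in Neiguan, -2.02 ± 0.32 in Yanglingquan, -1.54 ± 0.23 in Quchi, -1.62 ± 0.90 in IRI and -1.43 ± 0.46 in sham (SD, n = 4 each). The IRI arrays alone ran between -2.60 and -0.43, which covers the means of all other groups. The widest differences from sham were -0.61 ± 0.34 in Jiaji (limma adjusted p = 0.202) and -0.59 ± 0.34 in Yanglingquan (limma adjusted p = 0.262).

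Il33, a nuclear alarmin that signals through ST2, was the member that differed most among the acupoint groups when 1 probe represented each gene. Its levels were 2.66, 2.64, 3.38 and 3.65 in Jiaji, and 3.27, 3.12, 3.22 and 3.60 in Neiguan. They were 2.90, 2.39, 2.72 and 2.11 in Yanglingquan, and -0.53, -1.07, 1.93 and 2.07 in Quchi. The IRI arrays had 1.32, 1.03, 2.78 and 2.45, against 1.58, 1.93, 1.498 and 1.501 in sham. Every Jiaji, Neiguan and Yanglingquan array lay above every sham array, and every Neiguan array lay above every IRI array. Of all genes, 17.3% lay wholly above sham in Jiaji, 14.8% in Neiguan and 7.5% in Yanglingquan, and 8.29% lay wholly above IRI in Neiguan. IRI and sham overlapped.

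Il33 rose by 1.46 ± 0.52 in Jiaji (limma adjusted p = 0.0454) and by 1.67 ± 0.52 in Neiguan (limma adjusted p = 0.0269) against sham (log2, SE, n = 4 each). Both calls were close to the threshold. The Jiaji call held in 2 of 8 fits that left out 1 array, with adjusted p up to 0.129, and ended without sham replicate 1, 3 or 4 or Jiaji replicate 1, 3 or 4. It also ended with median scaling and with no filter on dim probes. The Neiguan call held in 3 of 8 such fits, and ended without sham replicate 3 or 4 or Neiguan replicate 1, 3 or 4, with adjusted p up to 0.0762. In Yanglingquan the difference from sham was 0.90 ± 0.52 (limma adjusted p = 0.258), in Quchi -1.03 ± 0.52 (limma adjusted p = 0.161) and in IRI 0.27 ± 0.52 (limma adjusted p = 0.866).

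Among the acupoint groups, Il33 differed by the moderated F test (limma adjusted p = 0.00173), as did Il1rl1, so that 2 of 9 members were called where 39.1% of all genes were. With every probe tested on its own, the F test gave Il33 an adjusted p of 0.00142 (limma). The Il1rl1 probe of lower mean signal had 0.000812 and the dimmer Il1a probe 0.0116 in the same test. Il33 was higher by 2.48 ± 0.52 in Jiaji than in Quchi (limma adjusted p = 0.00367, with 21% of all genes called). It was higher by 2.70 ± 0.52 in Neiguan than in Quchi (limma adjusted p = 0.00243, with 14.5% called) and by 1.93 ± 0.52 in Yanglingquan than in Quchi (limma adjusted p = 0.0146, with 16.1% called). The first 2 of these calls held in all 8 fits that left out 1 array, and the third ended without Quchi replicate 2 (1.41, limma adjusted p = 0.0780). Between Jiaji and Neiguan the difference was -0.22 ± 0.52 (limma adjusted p = 0.882), in a comparison where 0% of all genes were called.

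The low Il33 values of Quchi came from its males. The 2 Quchi males had -0.53 and -1.07, and the 2 Quchi females had 1.93 and 2.07. In sham the males had 1.58 and 1.93 and the females had 1.498 and 1.501, and in IRI 1 array of each sex was high and 1 low. The signed difference of Quchi from sham was higher by 3.05 ± 0.70 in females than in males, since the Quchi females averaged 1.996 against 1.4998 in sham females and the Quchi males -0.80 against 1.75 in sham males. The model held a mean for each group and sex and was added after this split had been seen. Its unadjusted p was 0.000552 and its adjusted p over all genes was 0.386 (limma), and 0.0155% of all genes were called. The males were not scanned together, since the first Quchi array was scanned apart and the second with the females.

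Il1rn, which encodes the receptor antagonist, was highest in Neiguan. It had -1.10, 0.40, -0.58 and 0.67 in Neiguan, against -1.25, -1.82, -1.72 and -1.31 in Quchi, with no overlap, as 7.57% of all genes lay wholly above Quchi in Neiguan. The difference of 1.38 ± 0.45 was called (limma adjusted p = 0.0433), and no other comparison of Il1rn was. It held in 3 of 8 fits that left out 1 array and ended without Neiguan replicate 2 or 4 or Quchi replicate 1, 2 or 3, with adjusted p up to 0.154, and it ended with median scaling and with no filter on dim probes. The 2 Neiguan females had 0.40 and 0.67 and the 2 males -1.10 and -0.58, whereas in Yanglingquan the males averaged -0.44 and the females -2.08, so that among males the Yanglingquan mean was the highest. In the model with a mean for each group and sex the signed difference of Neiguan from Yanglingquan was higher by 3.02 ± 0.64 in females than in males, with an unadjusted p of 0.000256 and an adjusted p over all genes of 0.114 (limma), where 0.00777% of all genes were called. Against IRI the Neiguan difference was 1.07 ± 0.45 (limma adjusted p = 0.185) and against sham 0.99 ± 0.45 (limma adjusted p = 0.120). The other group means were -1.004 ± 0.21 in Jiaji, -1.26 ± 1.01 in Yanglingquan, -1.22 ± 0.69 in IRI and -1.14 ± 0.66 in sham (SD, n = 4 each).

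Il1r2, the decoy receptor that binds IL-1 without signalling, was lowest in sham. Its levels were -2.64, -3.13, -1.59 and -2.51 in Jiaji, and -1.46, -2.60, -2.40 and -1.82 in Neiguan. They were -2.09, -1.29, -2.75 and -1.30 in Yanglingquan, and -2.25, -2.27, -1.52 and -1.46 in Quchi. The IRI arrays had -2.95, -2.01, -2.89 and -2.17, against -2.66, -4.27, -4.80 and -4.16 in sham. Sham replicate 1 stood within the range of the Jiaji, Yanglingquan and IRI arrays, and the other 3 sham arrays lay below every injured array.

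Il1r2 rose against sham by 1.51 ± 0.43 in Jiaji (limma adjusted p = 0.0146), by 1.90 ± 0.43 in Neiguan (limma adjusted p = 0.00357), by 2.11 ± 0.43 in Yanglingquan (limma adjusted p = 0.00325) and by 2.10 ± 0.43 in Quchi (limma adjusted p = 0.00209). In IRI it rose by 1.47 ± 0.43 (log2, SE, n = 4 each), with a limma adjusted p of 0.0484. The Neiguan, Yanglingquan and Quchi calls held in all 10 other settings and all 8 fits without 1 array. The Jiaji call ended without sham replicate 3 or Jiaji replicate 3. The IRI call held in 4 of 10 other settings and in 1 of 8 fits without 1 array, the one without sham replicate 1 (1.92, limma adjusted p = 0.00839). Its adjusted p without any other single array lay between 0.0532 and 0.185. None of the 4 acupoint groups differed from IRI beyond the spread between arrays, at 0.04, 0.43, 0.65 and 0.63 (SE 0.43 each) in Jiaji, Neiguan, Yanglingquan and Quchi.

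Neutrophil markers, like Il1r2, had their lowest group mean in sham (-2.86). Among the injured groups the marker mean was lowest in Yanglingquan (-2.29), where the Il1r2 mean was highest (-1.86). The marker ranges of the injured groups overlapped, and their order was not tested. Of 12 markers 11 were measured, and their mean level per array ranged over -2.73 to -1.67 in Jiaji, -2.57 to -1.71 in Neiguan, -2.63 to -1.94 in Yanglingquan, -2.52 to -1.75 in Quchi, -2.33 to -2.01 in IRI and -3.31 to -2.38 in sham. Against sham, 4 of the 11 were called higher in Jiaji, 5 in Neiguan, 2 in Yanglingquan, 4 in Quchi and 1 in IRI, and 0 were called lower. Of all genes, 24% were called in either direction in Jiaji, 19.9% in Neiguan, 13% in Yanglingquan, 21.1% in Quchi and 5.76% in IRI. The granulocyte receptor gene Csf3r rose by 1.19 in Jiaji, 1.11 in Neiguan, 1.102 in Yanglingquan and 0.79 in Quchi against sham. The chemokine receptor gene Cxcr2 rose by 1.27 in Jiaji, 1.12 in Neiguan, 0.90 in Quchi and 1.05 in IRI against sham. Elane rose by 2.59 in Jiaji, 2.34 in Neiguan and 2.17 in Quchi against sham, and differed by -1.60 in Yanglingquan against IRI. S100a9, whose level was most like that of Il1r2 (r = 0.93), rose by 1.87 in Yanglingquan against sham (limma adjusted p = 0.0242). At most 3 called markers are named per comparison, so a marker not named for a group may still have been called there. The part of these cells in the Il1r2 difference was not tested. In tissue RNA, fewer cells of a type and less RNA per cell cannot be told apart.

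**Figure D2:**
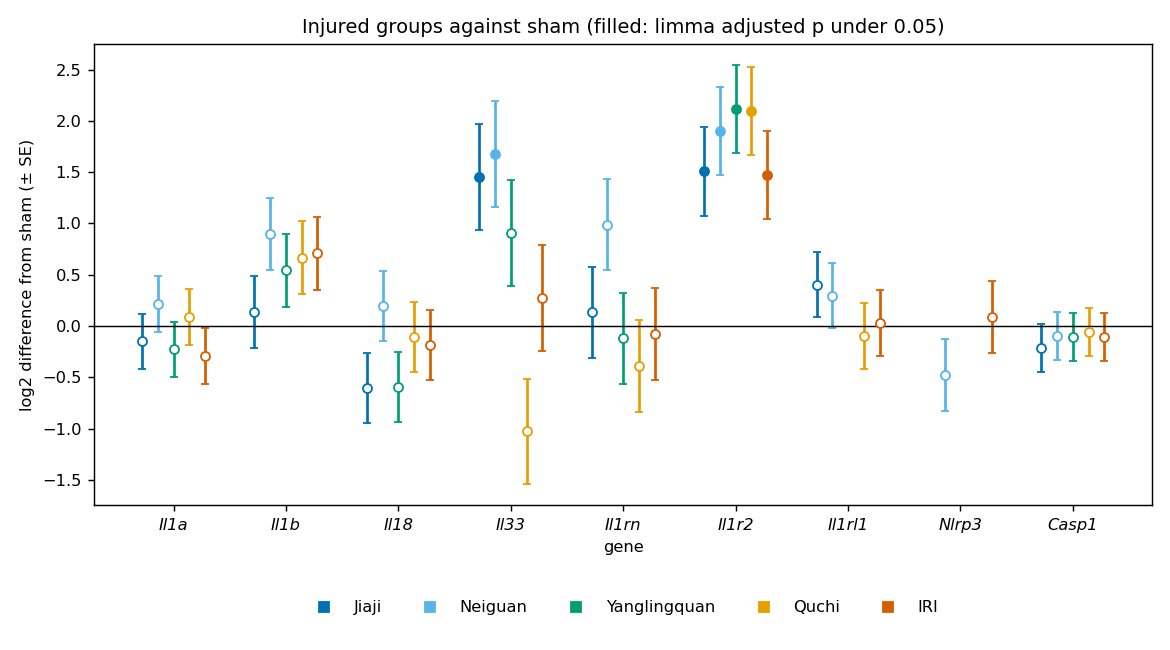
Log2 difference from sham for each gene in the Jiaji, Neiguan, Yanglingquan, Quchi and IRI groups, with the standard error as a bar. Filled points passed an adjusted p of 0.05. Points are left out where the group was not well above background on any array. Il1r2 is filled in all 5 groups and Il33 in Jiaji and Neiguan.

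Il1rl1, which encodes the IL-33 receptor ST2, was measured by 2 dim probes that differed in part. On the probe of higher mean signal it had -4.95, -5.37, -5.23 and -4.91 in Jiaji, and -5.14, -5.22, -5.60 and -4.93 in Neiguan. It had -5.64, -6.52, -5.97 and -6.76 in Yanglingquan, and -6.86, -5.10, -5.35 and -5.15 in Quchi. The IRI arrays had -5.83, -5.72, -5.36 and -5.06, against -5.21, -5.33, -5.58 and -5.95 in sham. The probe was not well above background on any Yanglingquan array, where fewer probes of all kinds were, so that only a bound holds there.

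For the bound, each array of the dimmer group is given the higher of the probe's own signal and the lowest signal well above background, and their mean is set against that of the brighter group. On this scale the mean of Il1rl1 was 1.52-fold higher in Jiaji than in Yanglingquan. In Neiguan, where 3 of 4 arrays measured it, it was 1.41-fold higher than in Yanglingquan. These folds carry no error and were not tested. The tests are of the measured values, without the bound. On the log2 scale Jiaji was higher than Yanglingquan by 1.11 ± 0.32 (limma adjusted p = 0.0126, with 29.8% of all genes called). Neiguan was higher by 1.001 ± 0.32 (limma adjusted p = 0.0318, with 20.6% called). The measured means were -5.12 in Jiaji and -5.22 in Neiguan, against -6.22 in Yanglingquan. The first call ended without Yanglingquan replicate 4, and the second without Neiguan replicate 1, 2 or 4 or Yanglingquan replicate 2 or 4. With normexp background correction the direction turned and neither was called, at -0.065 for Jiaji and -0.13 for Neiguan, and neither was called with quantile normalization or the authors' values. The moderated F test among the acupoint groups gave an adjusted p of 0.0297 for this probe (limma), which became 0.191 with normexp, 0.391 with quantile normalization, 0.0630 with median scaling and 0.388 with the authors' values. It was 0.0531 without Jiaji replicate 1, 0.0510 without Jiaji replicate 4, 0.0899 without Yanglingquan replicate 2 and 0.104 without Yanglingquan replicate 4.

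The second Il1rl1 probe carries another RefSeq transcript of the gene. It had -5.09, -4.75, -4.98 and -4.87 in Jiaji, and -5.04, -4.89, -5.27 and -5.25 in Neiguan. The IRI arrays had -6.92, -6.28, -6.27 and -6.28, with 2 of 4 well above background, and the sham arrays had -5.94, -5.10, -6.21 and -6.36. Every Jiaji and Neiguan array lay above every IRI array, as did 11.5% of all genes in Jiaji and 8.29% in Neiguan on the probes that represent them. With every probe tested on its own, it was higher than in IRI by 1.52 ± 0.25 in Jiaji (limma adjusted p = 0.00028, with 12.2% of all probes called) and by 1.33 ± 0.25 in Neiguan (limma adjusted p = 0.00162, with 7.41% called). Both calls held in all 8 fits that left out 1 array, but with normexp background correction the differences were 0.097 in Jiaji (limma adjusted p = 0.670) and 0.070 in Neiguan (limma adjusted p = 0.729). Against sham it rose by 0.98 ± 0.25 in Jiaji (limma adjusted p = 0.00557, with 28.2% called) and by 0.79 ± 0.25 in Neiguan (limma adjusted p = 0.0259, with 24% called), and normexp ended these calls too. The Jiaji call against sham also ended with quantile normalization (0.51, limma adjusted p = 0.0651) and the authors' values (0.51, limma adjusted p = 0.0619), and the Neiguan call without sham replicate 3 or 4 or Neiguan replicate 1 or 2, with adjusted p up to 0.0975. The first probe gave 0.37 ± 0.32 in Jiaji against IRI (limma adjusted p = 0.526) and 0.27 ± 0.32 in Neiguan against IRI (limma adjusted p = 0.680), so that the result rests on 1 of the 2 probes. Both probes lay higher in Jiaji and Neiguan than in Yanglingquan, where the second probe was also not well above background on any array. On the second probe the bound, which was not tested, was 1.79-fold for Jiaji over Yanglingquan and 1.57-fold for Neiguan over Yanglingquan. The measured log2 difference from Yanglingquan was 1.37 ± 0.25 in Jiaji (limma adjusted p = 0.000421, with 32.8% of all probes called). In Neiguan it was 1.18 ± 0.25 (limma adjusted p = 0.00275, with 23.6% called). With normexp the differences were 0.042 in Jiaji and 0.015 in Neiguan on the log2 scale and neither was called, and the Jiaji call also ended with quantile normalization and the authors' values. Which probe measures the gene better was not tested.

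**Figure D3:**
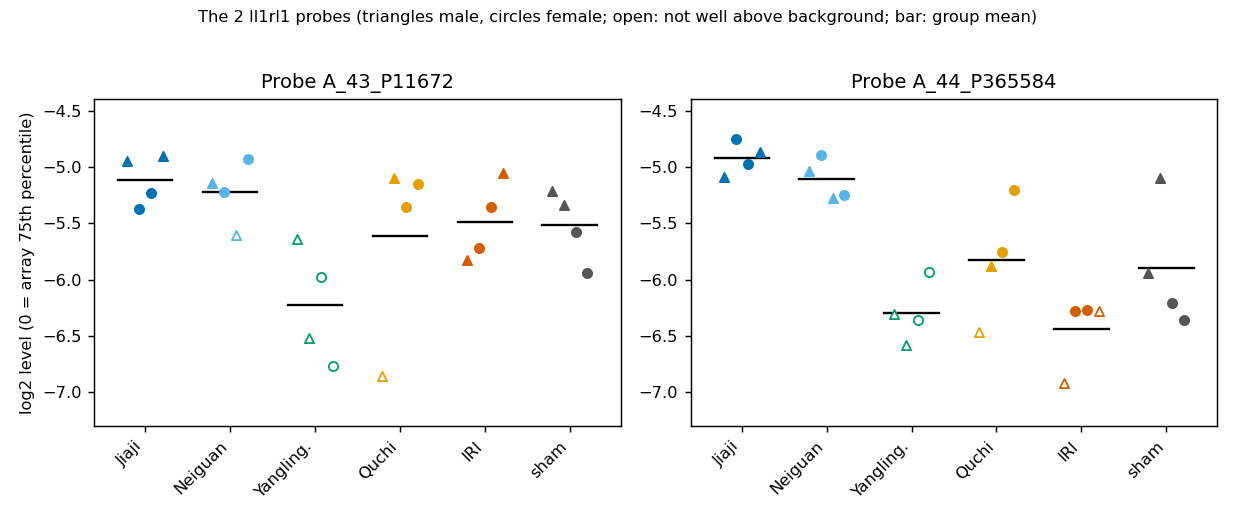
Level of the 2 Il1rl1 probes on each array (log2, 0 is the 75th percentile of the array), by group, with males as triangles, females as circles and the group mean as a bar. Open symbols are spots not well above background. On the probe at the right every Jiaji and Neiguan array lies above every IRI array, and on the probe at the left these groups overlap.

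Nlrp3, the inflammasome sensor, was near background. It was well above background on 4 of 4 sham arrays and 3 of 4 IRI arrays, on 1 of 4 Neiguan arrays and on none of the Jiaji, Yanglingquan and Quchi arrays. Its levels were -7.47, -7.28, -6.83 and -7.26 in Quchi. They were -5.79, -6.20, -6.11 and -6.62 in IRI and -6.65, -5.72, -6.23 and -6.48 in sham. Every Quchi array lay below every IRI and every sham array, as 564 of all 12891 genes did against IRI and 1380 against sham, but only a bound holds for Quchi and it leaves no fold. The adjusted p was 0.111 for Quchi against IRI and 0.063 for Quchi against sham (limma), and no comparison of Nlrp3 was called. Quchi against sham was called with quantile normalization (-1.24, limma adjusted p = 0.00415), median scaling (-1.02, limma adjusted p = 0.0281) and the authors' values (-1.21, limma adjusted p = 0.0125). The probe passed the filter on dim probes only through sham, and no Quchi array was well above background. Nothing is therefore read from these calls or from the lack of overlap with sham.

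Casp1, the protease that cleaves the IL-1 beta and IL-18 precursors, was well above background on all 24 arrays and differed least of the 9 genes over the comparisons with IRI and sham. Its means were 0.32 ± 0.34 in Jiaji, 0.44 ± 0.36 in Neiguan, 0.43 ± 0.36 in Yanglingquan, 0.48 ± 0.16 in Quchi, 0.43 ± 0.49 in IRI and 0.54 ± 0.18 in sham (SD, n = 4 each). Its 9 differences from IRI or sham ran from -0.22 to 0.04 with an SE of 0.23 each. The smallest adjusted p was 0.515 (limma).

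Against IRI, which asks what acupuncture before injury changed, 0 of 9 members were called in any acupoint group when 1 probe represented each gene. Of all genes 10.2% were called in Jiaji, 5.61% in Neiguan, 12.1% in Yanglingquan and 3.44% in Quchi. The exceptions with every probe tested on its own were the second Il1rl1 probe in Jiaji and in Neiguan, given above. The largest differences that were not called were those of Il33, at 1.19 ± 0.52 in Jiaji (limma adjusted p = 0.165), 1.40 ± 0.52 in Neiguan (limma adjusted p = 0.126) and -1.30 ± 0.52 in Quchi (limma adjusted p = 0.171). The SE of the members' differences lay between 0.23 and 0.52 on 4 arrays per group. Between females and males 0 of 9 members were called, against 0.209% of all genes.

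**Figure D4:**
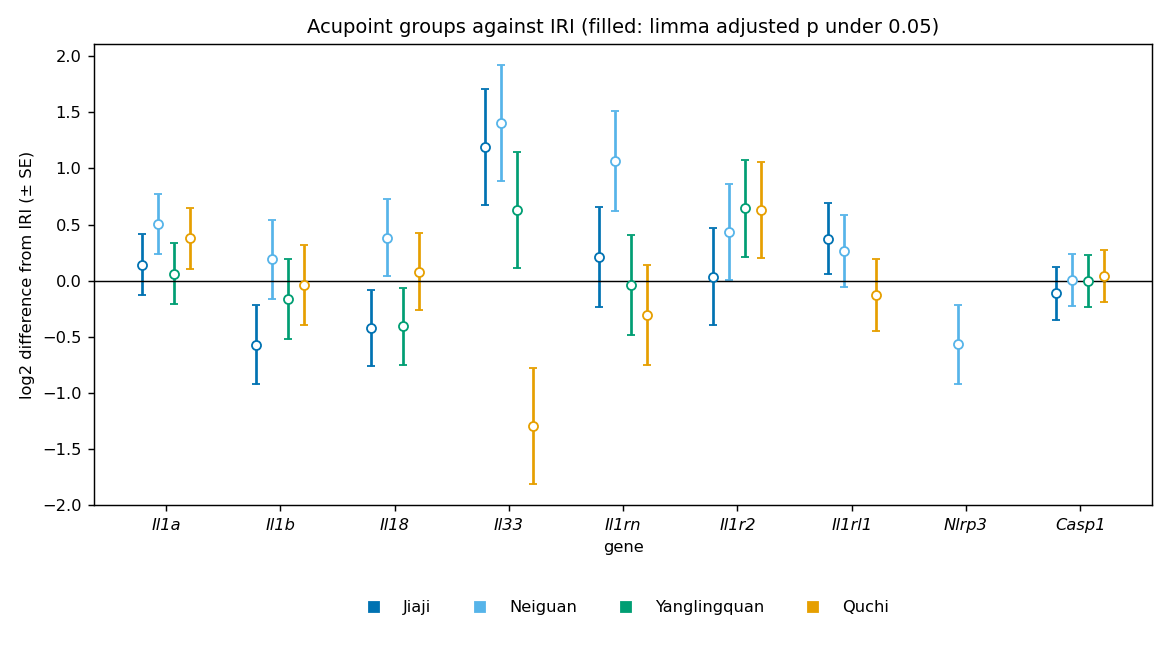
Log2 difference from IRI for each gene in the Jiaji, Neiguan, Yanglingquan and Quchi groups, with the standard error as a bar, for the probe that represents each gene. No point is filled, since none passed an adjusted p of 0.05. Points are left out where the group was not well above background on any array. Il33 lies highest in Neiguan and lowest in Quchi.

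The order of the group means differed by gene. For Il1r2 the order was Yanglingquan, Quchi, Neiguan, Jiaji, IRI and sham, and the step between IRI and sham was the only 1 between neighbours that was called for any member. For Il33 it was Neiguan, Jiaji, Yanglingquan, IRI, sham and Quchi, and for Il1rn it was Neiguan, Jiaji, sham, IRI, Yanglingquan and Quchi. For Il1b the order was Neiguan, IRI, Quchi, Yanglingquan, Jiaji and sham.

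Other genes of the pathway were counted by list. At most 3 called genes are named per list and comparison, so a gene not named for a group may still have been called there. Of 13 other IL-1 family ligands, receptors and binding proteins 9 were tested. Against IRI, 4 of the 9 rose and 1 fell in Jiaji, where 10.2% of all genes were called, and 1 fell in Neiguan, where 5.61% were. Among those in Jiaji, the IL-18 receptor gene Il18r1 rose by 0.94 ± 0.18 (limma adjusted p = 0.00152) and the epithelial cytokine gene Il36b rose by 1.22 ± 0.28 (limma adjusted p = 0.00691). In Neiguan Sigirr, an inhibitory receptor of the family, fell by 0.59 on the log2 scale (limma adjusted p = 0.00719). Against sham 6 of 9 rose in Jiaji, among them Il1rap, the shared co-receptor, by 1.16 ± 0.22 (limma adjusted p = 0.000553), and 3 rose and 1 fell in Neiguan, where 24% and 19.9% of all genes were called. In Quchi 1 of 9 rose, against 21.1% of all genes. In Yanglingquan and in IRI 0 were called, against 13% and 5.76% of all genes. The median difference of the list in Jiaji was 0.69 against IRI, where that of all genes was -0.02, and 1.12 against sham, where that of all genes was -0.09.

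Of 22 other inflammasome genes 14 were tested. Against sham 2 rose and 1 fell in Jiaji, 2 rose and 2 fell in Neiguan, 1 fell in Yanglingquan and 2 fell in Quchi, where 24% of all genes were called in Jiaji, 19.9% in Neiguan, 13% in Yanglingquan and 21.1% in Quchi. The sensor gene Nlrp1a rose by 1.01 ± 0.13 in Jiaji (limma adjusted p = 2.43e-05) and by 0.89 ± 0.13 in Neiguan (limma adjusted p = 0.000191) against IRI. Nlrp1a was the 1 gene called of 14 in each, where 10.2% of all genes were called in Jiaji and 5.61% in Neiguan. Nothing particular to this list is read from that count. Against sham it rose by 0.84 ± 0.13 in Jiaji and 0.71 ± 0.13 in Neiguan, and Nlrp12, another gene of the NLR family, rose by 1.22 ± 0.38 in each of these groups. Casp8, a caspase of cell death, fell against sham in all 4 acupoint groups, by 0.59 in Jiaji, 0.80 in Neiguan, 0.90 in Yanglingquan and 1.11 in Quchi on the log2 scale. Nek7, a partner of NLRP3, fell by 1.43 on the log2 scale in Quchi against sham (limma adjusted p = 0.000444). In IRI against sham 0 of 14 were called, where 5.76% of all genes were.

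Of 22 genes of IL-1 receptor signalling 17 were tested. Against sham 3 rose in Neiguan, and 2 rose and 1 fell in Jiaji. In Yanglingquan 1 rose and 1 fell, in Quchi 3 rose and 2 fell, and in IRI 1 rose. Called in either direction were 3 of 17 in Neiguan, where 19.9% of all genes were, 3 in Jiaji (24%), 2 in Yanglingquan (13%), 5 in Quchi (21.1%) and 1 in IRI (5.76%), so that nothing particular to this list is read from them. Irak2, a kinase next to MyD88, rose by 0.46 in Jiaji, 0.65 in Neiguan, 0.55 in Yanglingquan and 0.53 in Quchi. Map3k8, a kinase of the same pathway, was the 1 called in IRI, at 0.64 ± 0.14 (limma adjusted p = 0.0105).

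Of 30 target genes of NF-kB and IL-1 25 were tested. Against sham 7 rose in Jiaji, 9 in Neiguan, 4 in Yanglingquan, 9 in Quchi and 4 in IRI, and 0 fell. The shares of all genes called were 24% in Jiaji, 19.9% in Neiguan, 13% in Yanglingquan, 21.1% in Quchi and 5.76% in IRI. Against IRI 4 of 25 rose in Jiaji (10.2% of all genes called), 4 in Neiguan (5.61%), 1 in Yanglingquan (12.1%), where 1 also fell, and 1 in Quchi (3.44%). The neutrophil chemokine gene Cxcl1 rose against sham by 1.88 ± 0.38 in Yanglingquan, 2.38 ± 0.38 in Quchi and 2.05 ± 0.38 in IRI. The inducible nitric oxide synthase gene Nos2 rose against sham by 1.83 ± 0.18 in Jiaji, 1.94 ± 0.18 in Neiguan, 1.38 ± 0.18 in Yanglingquan and 0.82 ± 0.18 in IRI. Cxcl1 in Jiaji and Neiguan, and Nos2 in Quchi, were not among the 3 called genes of smallest adjusted p against sham. That does not show that they were unchanged there. Against IRI, Nos2 rose by 1.01 ± 0.18 in Jiaji, 1.12 ± 0.18 in Neiguan and 0.56 ± 0.18 in Yanglingquan (limma adjusted p = 0.0465), and the granulocyte growth factor gene Csf3 fell by 0.92 on the log2 scale in Yanglingquan (limma adjusted p = 0.0190). The prostaglandin synthase gene Ptges rose by 0.96 ± 0.13 in Jiaji, 0.69 ± 0.13 in Neiguan and 0.72 ± 0.13 in Quchi against IRI. The median difference from sham of the list was 0.43 in Jiaji, 0.66 in Neiguan, 0.37 in Yanglingquan, 0.53 in Quchi and 0.39 in IRI, where the medians of all genes lay between -0.10 and 0.03.

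The genes whose levels were most like those of each member were looked up over the 24 arrays, which share groups, scans and cell makeup, so that the correlations describe these arrays. Il1r2 was most like S100a9 (r = 0.93), S100a8 (r = 0.86) and Padi4 (r = 0.86), of which the first 2 are on the neutrophil list. Il18 was most like Clec4a3 (r = 0.91) and Cd68 (r = 0.91), a macrophage marker. Il1rn was most like Fgr (r = 0.87) and Tlr2 (r = 0.85), and Il1b most like Padi4 (r = 0.77). Il33 was most like the histone gene Hist1h4b (r = 0.92), at 0.99 when group means were removed. The SD of Il33 was 1.63 in Quchi, against 0.20 to 0.85 in the other groups, so that the 2 Quchi males weigh heavily in the 0.99. With group means removed, r was 0.92 for Il1r2 with S100a9, 0.94 for Il18 with Clec4a3 and 0.88 for Il1rn with Fgr. Among the members the closest pairs were Il1a with Il1rn (r = 0.71), Il1b with Il1r2 (r = 0.66) and Il18 with Casp1 (r = 0.61).

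**Figure D5:**
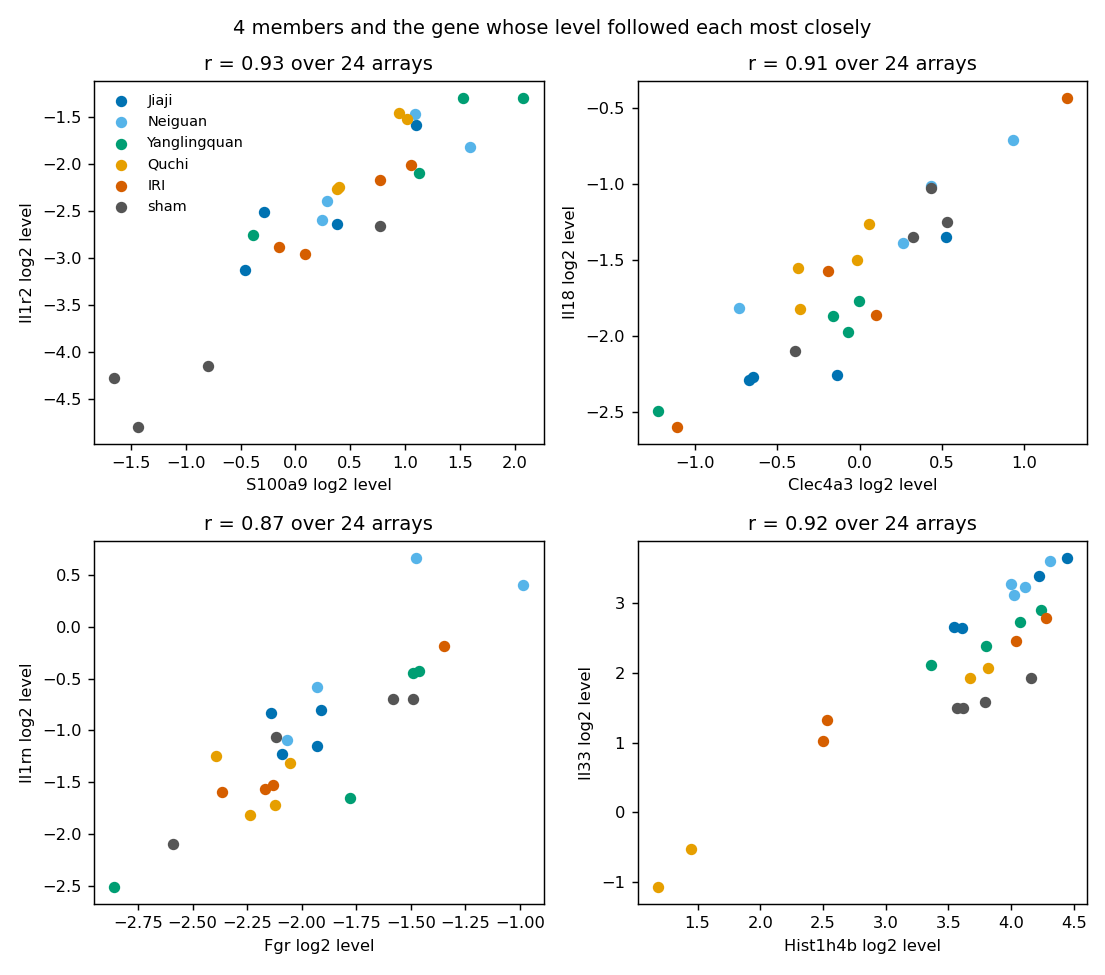
Levels of 4 members against the gene whose level followed each most closely, over 24 arrays (both axes log2, 0 is the 75th percentile of the array), coloured by group. For Il1r2, 3 sham arrays lie apart at the low end, and for Il33 the 2 Quchi males lie apart at the low end.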

How the data were processed

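Scanner files and a table of processed values of the same 24 arrays were used. The deposited spot intensity values had been background-subtracted and detrended by Agilent Feature Extraction 11.0.1.1, per the file headers. A different version, 10.7.3.1, stands in the submitters' processing notes. The authors' table holds log2 values with a median of 7.20 in each column and was used as an alternative. The sources used here name no tool for its normalization. Spot flags (other values, 0 or 1) were deposited with the scanner files. Control spots (1377 per array) and 8733 outlier spots were left out, no spot was saturated, and spots of a probe were averaged. Probe accessions were matched without version to rat RefSeq transcripts, naming 18005 of 30367 probes (59.3%). A probe was kept if 1 group or more had it well above background on every array, as 25145 did, and the passing probe of highest mean signal stood for a gene. Tests used limma 3.58.1 in R 4.3.3, two-sided, with 17 residual degrees of freedom, and were tested on simulated data. The members, gene lists and promoters shown were chosen with earlier results of these data known. All members are named. Genes of other lists were named from the up to 3 called genes of smallest adjusted p per comparison, and like genes from the 3 most like each member. Not all of these are named. Alternatives changed background correction, scaling, filter, probe choice, sex term, replicate block, scan and single arrays. Normexp was fitted on all spots, from median signals, with offset 50. The scan block, the fit by sex and the settings for second probes were added after seeing the data. The number of arrays limits the precision.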

Additional observations from a re-analysis of the deposited data

Results flagged for a closer look

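Each of 66 sets of 4 arrays (a probe in a group) was examined for 1 array far from the others, which chance finds in about 1 in 20, and 4 were found. Il18 was -1.35 on 1 Jiaji array, against -2.29 to -2.25 on the other 3. Il1rn was -0.18 on 1 IRI array, against -1.60 to -1.52 on the other 3. The first Il1rl1 probe was -6.86 on Quchi replicate 1, the array scanned apart, against -5.35 to -5.10 on the others, and the second was -6.92 on 1 IRI array, against -6.28 to -6.27. Differences among the 4 acupoint groups passed the test of the difference itself (moderated F test of limma) for Il33 (adjusted p = 0.00173) and Il1rl1 (adjusted p = 0.0297).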

How the results depend on the processing

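For 87 member values (9 genes in the 9 comparisons with IRI or sham, and the 6 called differences between acupoint groups), 1483 of 1546 alternative values kept their side of the threshold, 46 lost a call, 15 gained 1 and 2 reversed. Only 7 values with IRI or sham and the 6 between acupoint groups were called in the values reported. The 1483 are therefore mostly values that stayed uncalled, and the 46 losses and 2 reversals all fell on called values. The reversed values were those of Il1rl1 with normexp, at -0.065 in Jiaji against Yanglingquan and -0.13 in Neiguan against Yanglingquan; the cause was not tested. In IRI against sham the count of 1 became 0 with normexp, quantile normalization, median scaling, the authors' values, no filter on dim probes or the replicate block. Against IRI the count of 0 became 1 in Jiaji and in Neiguan with every probe on its own, 1 in Quchi with quantile normalization, and 1 in each of the 4 groups with scan as a random block. Against sham the count of 2 in Jiaji became 1 with no filter and 3 with quantile normalization (Nlrp3 added), median scaling (Nlrp3 and Il18 added, Il33 lost) or every probe on its own (Il1rl1 added). That of 2 in Neiguan became 4 with the scan block and 3 with every probe on its own (Il1rl1 added). The count of 1 became 2 in Yanglingquan with every probe on its own, and 2 in Quchi with quantile normalization, median scaling, the authors' values or the scan block. The F test count of 2 became 1 with normexp, median scaling or the strict filter, which leaves out Il1rl1 and Nlrp3, 3 with every probe on its own and 4 with the scan block. It stayed at 2 with quantile normalization and the authors' values, where Nlrp3 was called (adjusted p = 0.0110 and 0.0221) and Il1rl1 was not. The 6 calls between acupoint groups became 10 with every probe on its own. Added were the 2 calls of the second Il1a probe against Yanglingquan given above, and 2 against Quchi. The second Il1rl1 probe was higher by 0.90 in Jiaji than in Quchi (limma adjusted p = 0.0155). The second Il1a probe differed by -1.02 in Yanglingquan against Quchi (limma adjusted p = 0.0491). With 1 probe per gene, 21% and 16.1% of all genes were called in these comparisons, and normexp ended both calls. Leaving out 1 array gave 0 to 1 members in IRI against sham, 0 to 2 in Jiaji against sham, 1 to 2 in Neiguan against sham, 1 to 3 in the F test and 4 to 6 between acupoint groups. The scan block was added after seeing the data, in place of the planned slide block, since no slide is given; its correlation was -0.10, which narrows the errors. Replicate numbers did not pair the samples (60 same-number pairs correlated at -0.001 on average, -0.40 to 0.44). As a block they took the calls over 9 comparisons to 6, against 7 without it, losing Il1r2 in IRI against sham (1.47, adjusted p = 0.0649). With median scaling the median difference over all genes in Jiaji against sham was -0.36, with 1643 higher and 5223 lower calls, against -0.09, 2252 and 842 in the values reported. Dim signals limit Nlrp3, both Il1rl1 probes and the second Il1a probe, whose calls normexp ended. Nlrp3 passed the filter only through sham, so that nothing is read from its calls against sham in other settings.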
